A study of Mus musculus with 2 samples.

Results

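In embryonic mouse neural tube, 10 microRNA (miRNA) gene annotations were read almost entirely on the strand they do not lie on. They are Gm24321, Gm25927, Gm25252, Gm24083, Gm25301, Mir299b, Gm25750, Mir142b, Mir497b and Gm25641, 10 of the 1973 miRNA genes counted. They were chosen by their own counts: each had at least 100 reads on the opposite strand and more reads there than on its own strand, in both libraries, and each overlaps another annotated miRNA gene on that strand. Across all counted genes, 0.507% met the count part of this rule, and those were these 10. The tissue was neural tube, the embryonic precursor of brain and spinal cord, dissected at 12.5 days from B6NCrl mice, with both sexes mixed. It forms 1 group of 2 biological replicates, a pool of 120 embryos in replicate 1 and a pool of 88 in replicate 2. No other tissue, age or treatment enters here, so values are compared between strands, between genes and between the 2 pools.

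A miRNA is cut from a hairpin in a longer transcript, and 1 arm of the hairpin is loaded into an Argonaute protein, where bases 2 to 8 (the seed) choose the messages it represses. Because the arms of a hairpin pair with each other, the complementary strand of the same DNA can also be drawn as a hairpin, and annotations sometimes hold a gene on both strands. Symbols that start with Gm are placeholders for predicted genes. In a strand-resolved count, a read from the transcribed strand falls in the opposite-strand column of an annotation on the other strand.

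The mature sequences of the overlapping miRNA genes are shown so that they can be set against the strand of each annotation. In the RefSeq table (GRCm38.p6), 9 of these 10 genes were matched, with 18 mature forms in all. The 5p forms are shown for all 9, and for Mir409, the locus with most reads among them, the 3p form as well. Each is written 5′ to 3′ with the seed in capitals.
miR-409-5p (opposite Gm24321): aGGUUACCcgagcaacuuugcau
miR-409-3p (opposite Gm24321): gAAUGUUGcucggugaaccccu
let-7e-5p (opposite Gm25927): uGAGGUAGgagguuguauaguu
miR-376a-5p (opposite Gm25252): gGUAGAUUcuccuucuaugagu
miR-191-5p (opposite Gm24083): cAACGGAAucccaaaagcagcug
miR-299a-5p (opposite Mir299b): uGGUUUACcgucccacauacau
miR-380-5p (opposite Gm25750): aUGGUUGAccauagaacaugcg
miR-142a-5p (opposite Mir142b): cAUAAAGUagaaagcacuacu
miR-497a-5p (opposite Mir497b): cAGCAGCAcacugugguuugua
miR-9-5p (opposite Gm25641): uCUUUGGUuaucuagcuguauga

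Of the 18 mature forms, 16 lie wholly inside the gene annotated across from them. All 16 are found whole in the reverse complement of that gene's transcript and 0 of them in the transcript itself. The 2 exceptions are the forms of Mir299a, which is longer than Mir299b and overhangs it. Outside Mir299b, the longest run that a mature form shares with the transcript on the annotated strand is 4 to 12 bases. The transcript of Gm25927 is shown as the typical case and that of Mir299b as the exception. Both are in the letters of GENCODE M21, 5′ to 3′ on the minus strand of mm10, and capitals mark the bases that pair with the mature forms of the other strand.
Gm25927: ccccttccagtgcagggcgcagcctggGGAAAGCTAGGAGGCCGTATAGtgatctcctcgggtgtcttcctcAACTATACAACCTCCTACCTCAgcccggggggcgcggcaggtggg
Mir299b: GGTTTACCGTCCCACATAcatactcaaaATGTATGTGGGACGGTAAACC
In Gm25927 the second block of capitals is the reverse complement of let-7e-5p, and the first that of let-7e-3p. The hairpin of Mir299b is nearly the same on both strands. Its transcript holds 21 of the 22 bases of miR-299a-5p and 18 of the 22 bases of miR-299a-3p, and RefSeq lists the shared runs as mature forms of Mir299b.
miR-299b-5p (Mir299b, its own strand): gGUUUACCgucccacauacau
miR-299b-3p (Mir299b, its own strand): uAUGUGGGacgguaaacc
A read made of those 21 bases alone matches both strands equally well, and how such reads were assigned was not tested. RefSeq also lists mature forms on the annotated strand of Mir142b, Mir497b and Gm25641, so 4 of the 10 have a named product there. The form named for Mir142b lies across from miR-142a-3p, and both are shown for comparison.
miR-142b (Mir142b, its own strand): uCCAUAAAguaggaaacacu
miR-142a-3p (opposite Mir142b): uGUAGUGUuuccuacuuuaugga

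On the strand of each annotation there were almost no reads. The rule asked for fewer reads there than on the opposite strand, and low own-strand counts were common. Of all 1973 counted genes, 371 had at least 10 own-strand reads in both libraries. Own-strand reads were 0 in both libraries for 7 of the 10 genes, where a count of 0 allows up to 0.625 CPM in replicate 1 and 0.678 CPM in replicate 2 (CPM is reads per 1000000 own-strand gene reads). Mir299b had 11 own-strand reads in replicate 1 and 10 in replicate 2. Mir497b had 3 and 1, and Gm25641 had 1 and 0. These are uniquely placed reads. They do not limit the 2 mature forms that RefSeq places on the strand of Gm25641, which have identical copies at 3 and 2 loci, nor those of Mir299b, whose letters are found on both strands. A count holds both arms of a hairpin, and the 18 mature forms of the opposite strand are 21 to 23 bases long, so levels are given per hairpin gene and not divided by length.

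The libraries held 4802411 own-strand gene reads in replicate 1 and 4422853 in replicate 2. Opposite-strand gene reads were far fewer, 84152 and 66438, or 1.72% and 1.48% of gene reads on both strands. The 10 genes held 83652 of them in replicate 1 and 66052 in replicate 2, which is 99.4% ± 0.00931 (SD, n = 2). Since they were chosen by these same reads, a large share follows in part from the choice, and the share is a description. All other counted genes shared the remaining 500 and 386 opposite-strand reads, 0.0102% and 0.00860% of gene reads on both strands. Set against the own-strand totals, the 10 genes summed to 16176 ± 1757 CPM (SD, n = 2), with 17419 CPM in replicate 1 (95% interval 17302 to 17536) and 14934 CPM in replicate 2 (14821 to 15048). In a count of the own strand alone these reads fall among the reads on no feature, of which they made up 8.16% in replicate 1 and 15.8% in replicate 2. Of 12 listed neural tube genes, 11 had a row and none of the 11 was at 0. That is no check of the tissue, since none of the 6 listed blood genes with a row was at 0 either, nor was the endothelial gene Mir126a. The own-strand sum of the 11 neural tube genes was 337733 CPM in replicate 1 and 325886 CPM in replicate 2. Nearly all of it came from Mir10a and Mir10b. Mir137 was at 2541 CPM in replicate 1 and 3077 CPM in replicate 2, and Mir153 at 808 and 806 CPM. Mir9-3, Mir218-2, Mir218-1 and Mir9-2 had means of 283, 281, 40.2 and 3.95 CPM. The 3 Mir124a copies, which share their mature sequence, were at 1.46 to 10.8 CPM. Reads mapping to several places are not counted, so these values do not give the level of that mature miRNA.

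**Figure D1:**
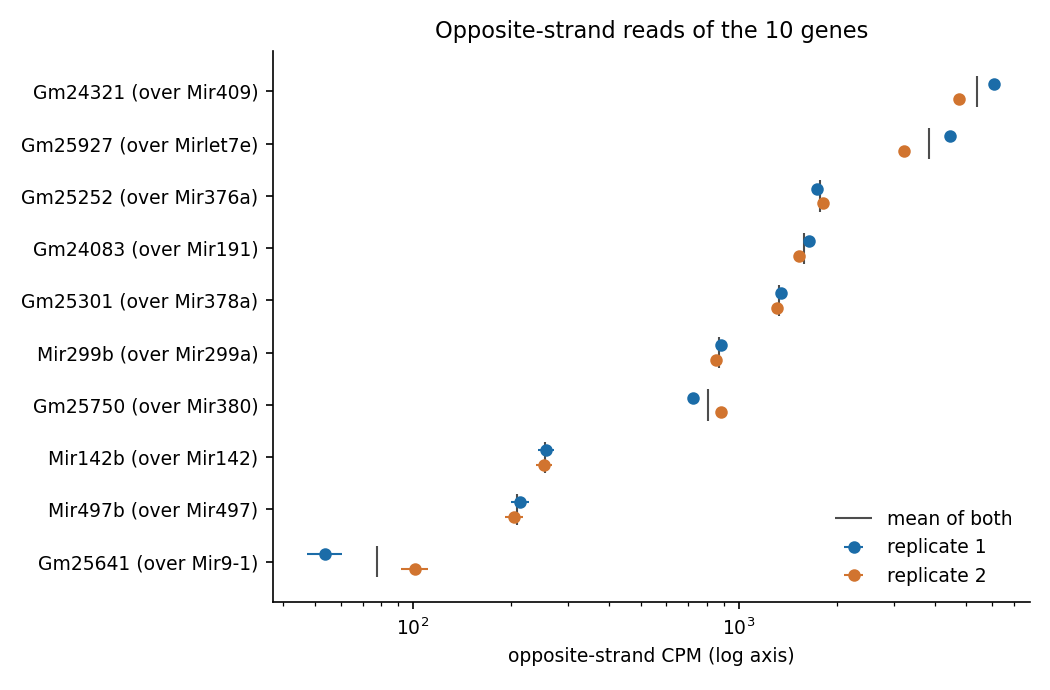
Opposite-strand CPM (log axis) of the 10 genes, each with the miRNA gene it overlaps in brackets; blue points are replicate 1, orange points replicate 2, bars the exact 95% counting interval and the vertical tick the mean. Means run from 77.5 CPM for Gm25641 to 5415 CPM for Gm24321, and the libraries lie farthest apart at Gm25641.

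The genes spanned a wide range in uniquely placed reads. Their means ran from 77.5 to 5415 CPM with a median of 1100 CPM, and the highest was 69.9 times the lowest. Placed among the own-strand means of all counted genes, they would stand at positions 33 to 211. Ordered by these means, 8 of the 9 adjacent pairs had a ratio above 1 by more than its SD over the same 2 libraries, which is a description, since those libraries also set the order. The exception was Mir299b over Gm25750, at 1.22 in replicate 1 and 0.962 in replicate 2. The lowest mean, 77.5 CPM at position 211, belongs to Gm25641, across from Mir9-1. Both mature forms of Mir9-1 are identical at 3 loci, and reads mapping to several places are not counted. The 69.9-fold span is thus one of uniquely placed reads and not of mature miRNA levels. The next lowest mean was 209 CPM, for Mir497b, at position 160.

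The 4 genes in the imprinted Dlk1-Dio3 region of chromosome 12 come first. In mice the miRNAs there are made from the maternal chromosome, in long noncoding transcripts, and are known for their abundance in the embryo and the brain. Gm24321 (ENSMUSG00000093089.1, mm10 109743158 to 109743237, minus strand) covers Mir409 (109743158 to 109743236, plus strand), which lies in an intron of the noncoding gene Mirg. It had 29204 opposite-strand reads in replicate 1 and 21001 in replicate 2, or 6081 and 4748 CPM (mean 5415 ± 942, SD, n = 2). That was the highest level of the 10 in both libraries. Gm25252 (ENSMUSG00000093218.1, 109723756 to 109723875), across from Mir376a, had 8391 and 8046 reads, or 1747 and 1819 CPM (mean 1783 ± 50.9). Mir299b (ENSMUSG00000093291.1, 109710645 to 109710693), across from Mir299a, had 4254 and 3767 reads, or 886 and 852 CPM (mean 869 ± 24.1). Gm25750 (ENSMUSG00000093224.1, 109711779 to 109711890), across from Mir380, had 3486 and 3916 reads, or 726 and 885 CPM (mean 806 ± 113). The last 2 overlap in level between the pools. Mir376a, Mir299a and Mir380 have no longer gene annotated around them on their strand.

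Together these 4 held 8872 ± 803 CPM, against 47696 ± 676 CPM on the own strand of the 53 counted miRNA genes of the same strand within 200 kb. Their share of both sums together was 15.7% ± 1.01 (SD, n = 2). By mean CPM, Gm24321 would be the second most abundant locus there, after Mir487b with 8163 ± 26.6 CPM. That place rests on replicate 1, since in replicate 2 Gm24321, at 4748 CPM, was also below Mir369, at 5044 CPM, and Mir127, at 4791 CPM. Gm25252 would be number 11, Mir299b number 15 and Gm25750 number 19.

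Their close neighbours differed widely in level. Mir369, 0.182 kb from Mir409, had 4867 ± 249 CPM, and Gm24321 was 1.12 ± 0.251 times as high, a difference within its spread. Mir412, 0.053 kb from Mir409, had 80.3 ± 1.92 CPM, and Gm24321 was 67.3 ± 10.1 times as high. Mir411, 0.382 kb from Mir299a, had 4696 ± 482 CPM, or 5.40 ± 0.405 times Mir299b. Reads that match both strands of the Mir299a hairpin equally well may be missing from the Mir299b count. That would bear on this ratio and on its place in the region, and was not tested. Mir300, 0.465 kb from Mir376a, had 614 ± 42.5 CPM, and Gm25252 was 2.91 ± 0.118 times as high. Mir1197, the nearest counted gene to Mir380 at 0.454 kb, had 4.19 ± 1.14 CPM. Capture of one sequence against another was not measured, so ratios between genes are ratios of reads.

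**Figure D2:**
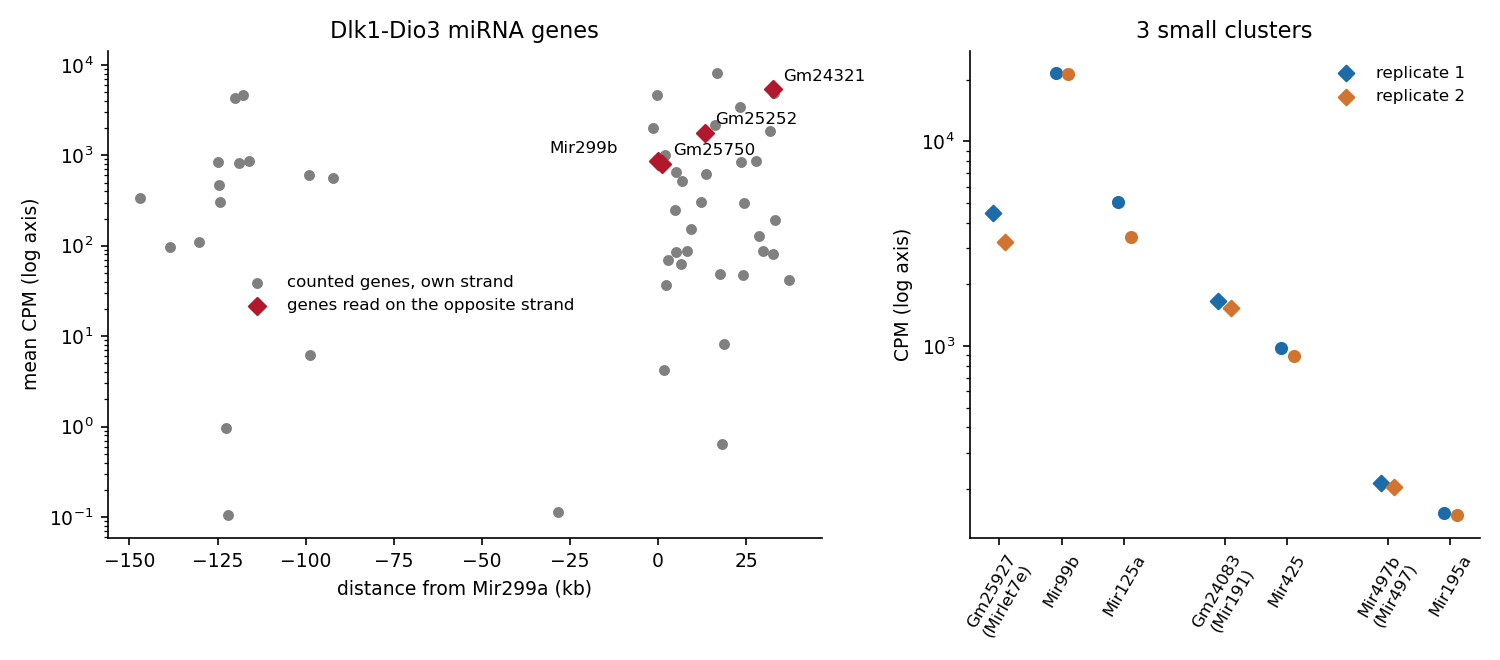
Left, mean CPM (log axis) by distance from Mir299a in kb for the miRNA genes of the Dlk1-Dio3 region, with counted genes on their own strand in grey and Gm24321, Gm25252, Mir299b and Gm25750 on the opposite strand as red diamonds; genes at 0 are not drawn. Right, CPM (log axis) in replicate 1 (blue) and replicate 2 (orange) for 3 small clusters, diamonds being the opposite-strand value with the overlapping miRNA in brackets and circles the own-strand value of neighbours; only Mir99b, at 21419 CPM, stands far above its cluster.

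Gm25927 (ENSMUSG00000092799.1), on chromosome 17 (17830343 to 17830459, minus strand), covers Mirlet7e (17830352 to 17830444) in an intron of Spaca6. The let-7 family accumulates as cells differentiate and represses genes such as Lin28a. Gm25927 had 21418 opposite-strand reads in replicate 1 and 14247 in replicate 2, or 4460 and 3221 CPM (mean 3841 ± 876, SD, n = 2). Replicate 1 was 1.38-fold higher (95% interval 1.36 to 1.41).

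On their own strand, 11 other counted genes give a mature form with the let-7e-5p seed GAGGUAG, and 2 of them, Mirlet7g and Mirlet7i, were more abundant than Gm25927. Mirlet7g had 17546 ± 223 CPM on its own strand, or 4.70 ± 1.13 times Gm25927, and Mirlet7i 4.52 ± 0.471 times. Below it were Mirlet7d, which Gm25927 exceeded by 1.51 ± 0.00533 times, Mir98 by 2.28 ± 0.221 times and Mirlet7b by 2.69 ± 0.133 times. Mir7k and Mir1961 had 0 reads. These levels hold uniquely placed reads only, and several genes of the family, such as Mirlet7c-1 and Mirlet7c-2, share a mature sequence.

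Its 2 counted neighbours are Mir99b and Mir125a, which share the Mirlet7e strand within 0.368 kb. Mir99b had 21576 CPM in replicate 1 and 21262 CPM in replicate 2. Mir125a had 5070 and 3419 CPM, a replicate 1 level 1.48 times that of replicate 2, beside 1.38 times for Gm25927 and 1.01 times for Mir99b. The ratio of Mir125a to Gm25927 was 1.14 in replicate 1 and 1.06 in replicate 2.

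Gm24083 (ENSMUSG00000092915.1), on chromosome 9 (108568295 to 108568414, minus strand), covers Mir191 (108568319 to 108568392), which overlaps an exon of the noncoding gene 4833445I07Rik. Mir191 is expressed in many tissues. Gm24083 had 7915 opposite-strand reads in replicate 1 and 6787 in replicate 2, or 1648 and 1535 CPM (mean 1591 ± 80.3, SD, n = 2). The libraries lay close together, with a ratio of 1.07 (1.04 to 1.11). Mir425, which lies 0.385 kb away on the same strand, had 936 ± 57.1 CPM, and Gm24083 was 1.70 ± 0.0180 times as high. This ratio varied less between the pools than either level did.

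Mir497b (ENSMUSG00000070109.2), on chromosome 11 (70234692 to 70234816, minus strand), covers Mir497 (70234717 to 70234800). Mir497 and its neighbour Mir195a belong to the Mir15 and Mir16 family, which represses cyclins and other cell cycle genes. Mir497b had 1024 opposite-strand reads in replicate 1 and 904 in replicate 2, or 213 and 204 CPM (mean 209 ± 6.25, SD, n = 2). Mir195a, 0.242 kb away, had 151 ± 3.18 CPM, and Mir497b was 1.38 ± 0.0122 times as high. Among genes with the same seed, AGCAGCA, on their own strand, Mir322 had 11750 ± 389 CPM and Mir15a 3056 ± 278. Mir16-1 had 1462 ± 208 CPM, Mir15b 1070 ± 58.9 and Mir16-2 275 ± 28.4. Here too only uniquely placed reads are counted, so the order is not that of the mature forms. Of the 10 other counted genes with this seed, 5 were above Mir497b and 4 had 0 reads in both libraries.

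Mir142b (ENSMUSG00000065420.2), also on chromosome 11 (87756841 to 87756955, minus strand), covers Mir142 (87756864 to 87756927) in an intron of Mir142hg. Mir142 is known for its expression in blood cells. Mir142b had 1230 opposite-strand reads in replicate 1 and 1118 in replicate 2, or 256 and 253 CPM (mean 254 ± 2.36, SD, n = 2). On its own strand it had 0 reads. The 6 other blood genes listed, each read on its own strand, summed to 461 CPM in replicate 1 and 404 CPM in replicate 2, and none was at 0. The Mir142b level was 1.38 ± 0.152 times that of Mir223, a myeloid miRNA, 2.07 ± 0.170 times that of Mir155 and 3.51 ± 0.237 times that of the erythroid Mir451a. It was 15.4 ± 0.755 times that of Mir150, 15.0 ± 3.27 times that of Mir144 and 15.9 ± 4.76 times that of Mir486. All these ratios are of uniquely placed reads and not of mature miRNA levels. Mir486 and Mir451a each overlap a miRNA gene on the other strand, Mir3107 and Mir451b. How many of their reads map to several places was not tested. Mir126a, the endothelial gene, had 20304 and 18258 CPM. In whole tissue, few cells of a type and little RNA per cell cannot be told apart.

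Gm25641 (ENSMUSG00000092876.1), on chromosome 3 (88215589 to 88215696, minus strand), covers Mir9-1 (88215598 to 88215686) in an intron of Gm3764. Mir9 acts in neural progenitors and their exit from the cell cycle. Gm25641 had 258 opposite-strand reads in replicate 1 and 448 in replicate 2, or 53.7 and 101 CPM (mean 77.5 ± 33.6, SD, n = 2). It was the lowest of the 10 in both libraries and lower in replicate 1. Both mature forms of Mir9-1 are identical at 3 loci, and reads mapping to several places are in no gene's count, so the level of the mature miRNA is not given by these reads. Of the other loci, Mir9-3 had 283 ± 21.1 CPM and Mir9-2 3.95 ± 2.07 CPM on their own strand. The other 16 of the 18 mature forms have 1 locus each in the RefSeq table. Mir3093, 0.341 kb from Mir9-1, had 32.1 ± 8.25 CPM.

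Gm25301 (ENSMUSG00000093026.1) covers Mir378a in an intron of Ppargc1b, a coactivator of mitochondrial and fatty acid metabolism. It lies on chromosome 18 (61397813 to 61397925), on the plus strand, while the other 9 lie on the minus strand. It had 6472 opposite-strand reads in replicate 1 and 5818 in replicate 2, or 1348 and 1315 CPM (mean 1332 ± 22.8, SD, n = 2). The ratio of the libraries was 1.02, with a counting interval that held 1 (0.989 to 1.06). No counted miRNA gene lies within 10 kb on the strand of Mir378a, which was also the case for Mir142.

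The 10 genes stand among 32 places where GENCODE M21 has miRNA genes overlapping on opposite strands. In each of the 32 pairs exactly 1 gene had a row in the count tables used here, and no pair had both. Reads counted as ambiguous between genes were 0 in both libraries. In 11 pairs the counted gene had more opposite-strand than own-strand reads in both libraries, in 18 pairs fewer, and in 3 pairs neither held in both. The 11 are the 10 genes and Gm24111, across from Mirlet7f-1, with 104 opposite-strand reads in replicate 1 and 67 in replicate 2 and thus just outside the rule. Just inside it was Gm25641, with 258 and 448.

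Among the counted genes of these pairs, 8 have Gm symbols and all 8 are in the group of 11. Of the 24 with Mir symbols, 3 are in it, namely Mir299b, Mir142b and Mir497b. The 10 annotations were 49 to 125 bases long (median 114), against 61 to 93 bases (median 71) for the miRNA genes across from them, and 9 of the 10 cover that gene whole. Whether this sets them apart from the 22 other counted genes of the pairs was not tested. None of the 10 has a longer gene annotated on its own strand.

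Where the own strand carried the reads, the opposite strand was nearly empty. Of 13 such pair genes with at least 100 own-strand reads in both libraries, 12 had 0 to 7 opposite-strand reads a library. Mir126a had 7 opposite-strand against 97510 own-strand reads in replicate 1, and 5 against 80754 in replicate 2. The exception was Mir3074-1, across from Mir24-1, with 181 opposite-strand against 851 own-strand reads in replicate 1 and 147 against 885 in replicate 2. Uniquely placed reads thus came from both strands there, at 35.5 ± 3.15 CPM on the opposite strand and 189 ± 16.2 CPM on its own. Reads mapping to several places are in no gene's count, so the balance of the 2 strands in all reads is not given. Outside these pairs, 256 genes had at least 100 own-strand reads in both libraries, and in 0 of them was the opposite strand higher in either library. The most opposite-strand reads among them were at Mir203, with 74 against 4817 own-strand reads in replicate 1 and 55 against 5297 in replicate 2.

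**Figure D3:**
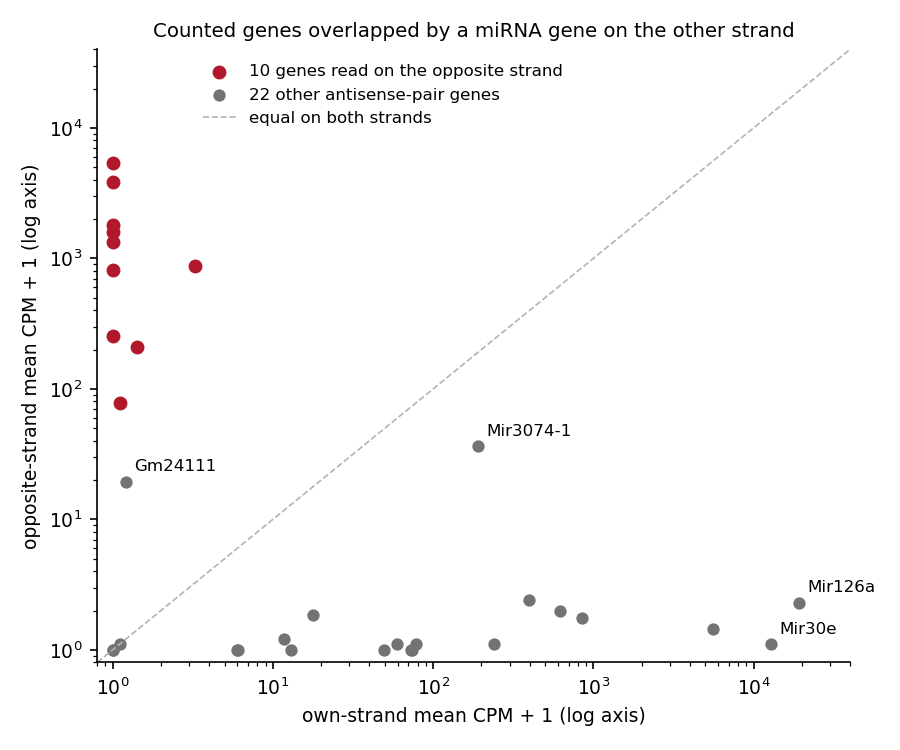
Opposite-strand against own-strand mean CPM, each plus 1 on log axes, for the 32 counted genes overlapped by a miRNA gene on the other strand; red points are the 10 genes read on the opposite strand, grey points the 22 others and the dashed line equal values. The 10 lie at or near the left edge, with Gm24111 below them, and most of the others along the bottom, while Mir3074-1 lies between.

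Between the pools, 9 of the 10 genes differed by less than 1.5-fold. Their log2 ratio of replicate 1 over replicate 2 had a median of 0.05 and ranged from -0.91 to 0.47. The median over the 269 genes with at least 100 own-strand reads in both libraries was 0.03, with quartiles of -0.16 and 0.25. At least 1.5-fold apart was 1 of the 10, Gm25641, against 8.92% of those 269 genes. Among the 11 genes with at least 100 opposite-strand reads in both libraries the share was 9.09%, but these are the 10 genes and Mir3074-1, and the 1 apart is again Gm25641, so it is no separate background. Gm25641 was 1.89-fold higher in replicate 2, with a ratio of replicate 1 over replicate 2 of 0.530 (95% counting interval 0.453 to 0.620). Mir9-3, with the same mature sequences, had a ratio of 0.900 in its uniquely placed reads. Mir9-2 had 26 reads in replicate 1 and 11 in replicate 2.

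The next farthest apart were Gm25927 at 1.38 and Gm24321 at 1.28 (1.26 to 1.30), both higher in replicate 1. Gm25750 was lower there, at 0.820 (0.783 to 0.858). For Gm25301, Mir299b, Mir142b and Mir497b the counting interval of the ratio held 1. By library totals 7 of the 10 were higher in replicate 1 and by TMM scaling 5, since Gm25301, at 1.02, and Mir142b, at 1.01, changed side. With 1 library a side there is no test of these differences, and no replicate error beyond the 2 pools themselves. The labels give the pools as separate biological replicates.

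**Figure D4:**
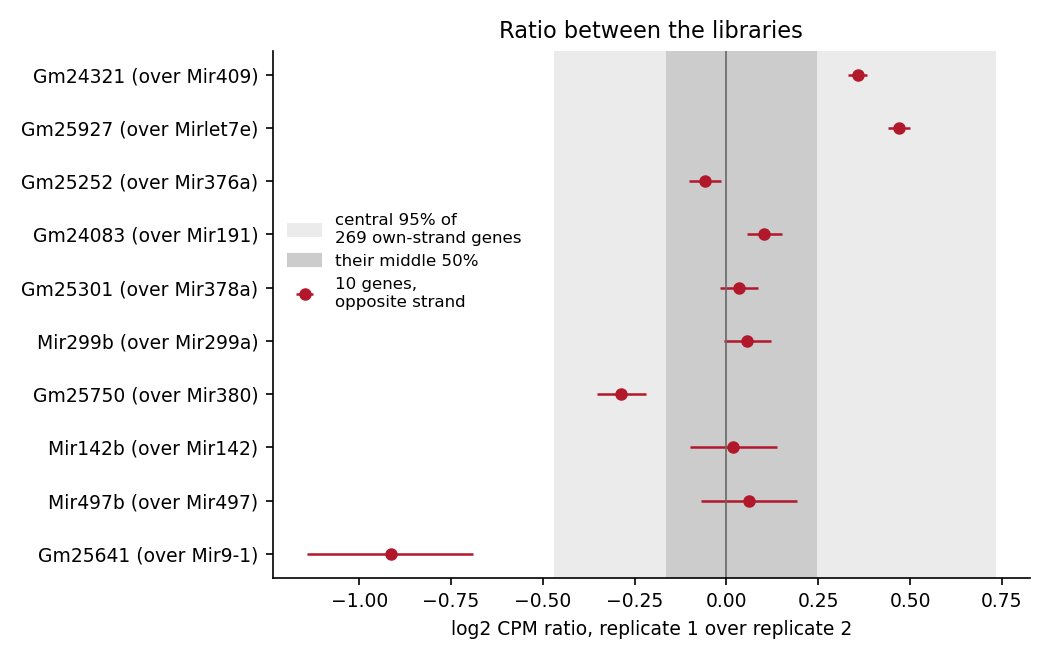
Log2 CPM ratio of replicate 1 over replicate 2 for the opposite-strand reads of the 10 genes, with exact 95% counting intervals; the shaded bands give the central 95% and the interquartile range of the same ratio over 269 genes read on their own strand. Gm25641, at -0.91, lies outside both bands, while Gm24321, Gm25927 and Gm25750 lie inside the wide band only.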

How the data were processed

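Small RNA was sequenced from 2 pools of mouse embryonic neural tube. For each library the authors deposited raw counts of reads per miRNA gene, in whole numbers and not normalized, in 1 column for both strands together and 1 for each strand alone. Per the descriptions deposited beside the counts, each table rests on assembly mm10, annotation M4 and a single alignment file. Aligner, counter and trimming: not given in the sources used here. The 4 rows that name no gene were left out of all totals. Unmapped reads were 27.3% of replicate 1 and 20.0% of replicate 2, reads mapping to several places 27.0% and 28.6%, and own-strand reads outside any gene 8.04% and 4.45%. The strand columns added up to the both-strand column in 1973 of 1973 genes.

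The own strand was taken to be the column with the larger total. CPM is a strand count per 1000000 own-strand gene reads of the library. Symbols and coordinates came from GENCODE M21 on the same assembly, matched by identifier for 1894 genes. The 79 unmatched genes had at most 1 opposite-strand read and 5 own-strand reads. Mature sequences came from RefSeq (GRCm38.p6), matched for 9 of the 10 overlapping miRNA genes.

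With 1 group there was no contrast and no test. The libraries were compared by CPM ratio with an exact conditional binomial interval, and called apart from 1.5-fold. Intervals are exact (Clopper-Pearson, 95%) and, like the limits for a count of 0 (3 reads), cover counting error only, since reads copied by PCR and carrying no molecular identifier are not separate molecules. The ratio and its interval were tested on simulated counts that held counting error only, so variation between pools was not part of that test. TMM (edgeR 4.0.16) and size factors (DESeq2 1.42.0, R 4.3.3) were alternatives, as were other read minimums, overlaps and denominators. Python 3.11.15, pandas 2.3.3 and scipy 1.17.1 were used.

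The genes and lists were chosen with earlier results of these data known. Named are the 10 genes, the miRNA gene over each, its nearest and most abundant counted neighbour within 10 kb on that strand, and the 3 genes outside the rule with most opposite-strand reads, of which 1 is the gene just outside it. Other genes of the same clusters, seed families or antisense pairs were picked with their values in view.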

Additional observations from a re-analysis of the deposited data

How the results depend on the processing

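Only a minimum of 200 reads or an overlap of at least 0.5 of the shorter gene could drop a gene, and each kept all 10. A minimum of 1, 10 or 50 reads, either library alone, and no overlap required only loosen the rule. These settings kept all 10 by construction and could only add genes. The number was 10 or 11 throughout, and the 1 gene added, below 100 reads and in replicate 1 alone, was Gm24111. The summed level of 16176 CPM was 14934 to 17419 CPM with 1 library left out and 15916 CPM with both strands in the denominator. It became 9706 CPM when multiply mapped reads joined the denominator, 994124 per 1000000 opposite-strand gene reads with that total, and 10762 CPM without Gm24321, each by construction. Gm25641 was the 1 gene at least 1.5-fold apart under library totals, TMM factors and DESeq2 size factors alike. Single levels stayed within 1 SD of the replicates under TMM scaling for 10 of 10 genes and under the both-strand denominator for 9 of 10, Mir142b being the exception with 250 against 254 CPM. The share of own-strand genes at least 1.5-fold apart was 12.9% from 10 reads, 7.43% with TMM factors and 41.3% with 1 read in either library. Below 0.625 CPM in replicate 1 and 0.678 CPM in replicate 2 a gene could not be told from one with no reads. No paired analysis was possible because there is 1 group.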
